A study of Mus musculus with 6 samples.

Results

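Among the transcripts that set the activated regulatory T cells of this series apart by genotype label at 72 h were 5 that encode secreted or extracellular proteins, Penk, Serpine2, Sulf2, Igfbp4 and Stc2. They were selected on their FPKM values at 72 h, which differed strongly and in the same direction in both pairs of libraries, 3 of them higher and 2 lower in the libraries labelled cKO. Each of the 5 symbols matched 1 of the 47069 Ensembl gene IDs that the deposited tables share, and each averaged 1 FPKM or more over the 6 libraries, as did 12394 genes in all. FPKM counts sequenced fragments per length of gene and per library size. The choice rested on the difference at 72 h, so that difference is described below and not tested.

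RNA had been sequenced from 6 libraries of mouse regulatory T cells, which restrain immune responses and are marked by the transcription factor Foxp3. The cells labelled cKO (conditional knockout) came from Foxp3CreNoc4lfl/fl mice, and those labelled Het came from Foxp3CreNoc4l+/fl mice, which carry the same Cre and 1 floxed allele. Because Foxp3 drives the Cre, recombination is directed at Foxp3-expressing cells. The cells were taken from lymph nodes and spleen, sorted as CD4+GFP+CD62Lhigh, and activated with Dynabeads for 72 h (cKO 2, Het 1, cKO 4 and Het 3, by replicate number) or 48 h (cKO 2 and Het 1). Age, sex, strain and the number of mice behind each library were not given in the sources used here, so the spread between libraries may be technical. One deposited table held replicates 1 and 2 and the other replicates 3 and 4, and genotypes were compared within a table.

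Penk encodes proenkephalin, the precursor from which the opioid peptides called enkephalins are cut, and its transcript has been described in mouse regulatory T cells. Serpine2 (protease nexin 1) inhibits thrombin, urokinase and plasmin, and Sulf2 removes sulfate groups from heparan sulfate chains outside the cell, which changes how growth factors bind there. Igfbp4 binds insulin-like growth factors and keeps them from their receptor. Work on the human proteins showed that IGFBP4 is cleaved by the protease PAPP-A and that stanniocalcin 2, the product of Stc2, inhibits PAPP-A, so these genes belong to 1 extracellular axis.

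The libraries held the RNA of T cells of the labelled kind, but the targeted gene went against the genotype labels. Noc4l stood at 81.7 FPKM in cKO 2 against 48.8 in Het 1, and at 58.1 in cKO 4 against 40.8 in Het 3 at 72 h, and at 124 in cKO 2 against 99.1 in Het 1 at 48 h. The files hold 1 value per gene, so loss of a floxed exon cannot be read from them, and every direction below is that of the libraries as labelled. Foxp3 lay between 147 and 336 FPKM and Il2ra between 1142 and 1554. The summed level of 10 neutrophil and myeloid markers was 263 FPKM in cKO 2 at 72 h and 330 in cKO 2 at 48 h, against at most 0.756 in the other 4 libraries. That of 7 B and plasma cell markers was 87.3 FPKM in cKO 2 at 72 h, against 9.13 to 25.9 elsewhere. Estimated depth was 16.4 to 28.7 M fragments per library.

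The transcription start regions are shown here because genes that differed in the same direction can be compared in sequence. RefSeq promoter sequences of build GRCm38.p6 matched 4 of the 5 genes, with Penk the other, and Sulf2 had 2 annotated starts. Each line gives the 250 bases upstream of a start, 5' to 3' on the gene's strand, with capitals for matches to a searched motif on either strand.
Serpine2, chr1:79858666-79858915, minus strand: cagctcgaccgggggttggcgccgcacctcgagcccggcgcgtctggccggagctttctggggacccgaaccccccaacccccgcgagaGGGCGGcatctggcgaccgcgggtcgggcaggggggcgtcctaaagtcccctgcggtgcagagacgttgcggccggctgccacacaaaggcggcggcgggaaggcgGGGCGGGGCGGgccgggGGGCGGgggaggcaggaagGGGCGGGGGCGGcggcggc
Sulf2, outer start, chr2:166155684-166155933, minus strand: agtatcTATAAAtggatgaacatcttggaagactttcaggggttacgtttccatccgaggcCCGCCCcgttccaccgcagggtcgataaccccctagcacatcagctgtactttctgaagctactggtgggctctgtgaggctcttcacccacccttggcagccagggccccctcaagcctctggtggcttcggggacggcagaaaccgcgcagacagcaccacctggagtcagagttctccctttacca
Sulf2, inner start, chr2:166155286-166155535, minus strand: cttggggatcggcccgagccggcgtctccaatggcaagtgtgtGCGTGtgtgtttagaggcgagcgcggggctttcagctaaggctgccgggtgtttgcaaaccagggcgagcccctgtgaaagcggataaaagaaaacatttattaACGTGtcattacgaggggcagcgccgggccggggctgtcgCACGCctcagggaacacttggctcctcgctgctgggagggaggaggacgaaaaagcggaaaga
Igfbp4, chr11:99040994-99041243, plus strand: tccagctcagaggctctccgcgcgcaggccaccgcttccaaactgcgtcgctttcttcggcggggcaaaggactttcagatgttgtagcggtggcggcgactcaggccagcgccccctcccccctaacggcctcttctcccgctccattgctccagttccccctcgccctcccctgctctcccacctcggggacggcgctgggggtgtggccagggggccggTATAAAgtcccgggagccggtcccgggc
Stc2, chr11:31370062-31370311, minus strand: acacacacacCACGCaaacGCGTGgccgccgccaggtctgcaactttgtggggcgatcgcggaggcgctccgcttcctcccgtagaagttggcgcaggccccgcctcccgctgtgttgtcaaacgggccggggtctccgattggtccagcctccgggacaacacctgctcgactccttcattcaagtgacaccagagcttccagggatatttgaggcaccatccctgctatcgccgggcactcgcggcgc

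The motifs searched were the TATA box (TATAAA), the GC box (GGGCGG), the AP-1 site (TGANTCA), the cyclic AMP response element (TGACGTCA), the E-box (CACGTG), both forms of the core bound by hypoxia-inducible factors (ACGTG, which lies within the E-box, and GCGTG) and the core of the amino acid response element (TGATGNAA). Serpine2, the gene richest in G and C here (78.8% of bases, against a median of 52.4% over 32851 windows), held 6 GC boxes, of which the pair ending at base -45 overlaps by 1 base. A GC box was present in 32.7% of all windows. Igfbp4 held a TATA box at bases -28 to -23 from the start, a motif present in 12.4% of all windows, and none of the other motifs. Stc2 held 2 copies of GCGTG at bases -240 to -236 and -231 to -227, and 28.2% of all windows held at least 1. Igfbp4 and Stc2, both lower in the libraries labelled cKO at 72 h, thus had no searched motif in common in these windows. At the inner start of Sulf2 there were 1 ACGTG (16.6% of all windows) and 2 GCGTG, and at the outer start a TATA box at bases -244 to -239 and 1 GC box. Serpine2 and the outer start of Sulf2, both of genes higher in the libraries labelled cKO, thus shared the GC box. Motifs were also shared across directions, the TATA box by Igfbp4 and the outer start of Sulf2, and GCGTG by Stc2 and its inner start. A match is a description of the letters and not of a bound site.

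Penk stood at 38.3 FPKM in cKO 2 against 2.64 in Het 1, and at 26.2 in cKO 4 against 0.758 in Het 3 at 72 h. The libraries labelled cKO were higher, by 14.5-fold in the first pair and 34.6-fold in the second. The groups did not overlap for Penk or for the other 4 genes, as their choice gives, and over 12488 genes this was so for 24.9% with higher and 13.8% with lower values in the libraries labelled cKO, across tables normalized separately. The Het levels rested on few fragments, an estimated 60 in Het 1 and 20 in Het 3, and the 95% Poisson interval of the Het 3 level was 0.463 to 1.17 FPKM, for counting error alone. In bulk RNA of this kind, more cells that express a gene and more RNA per cell cannot be told apart.

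Serpine2 had 48.0 FPKM in cKO 2 against 2.90 in Het 1, and 20.4 in cKO 4 against 1.12 in Het 3. It was 16.5-fold higher in cKO 2 and 18.2-fold higher in cKO 4 than in the Het library of the same table. Levels in cKO 2 and Het 1 were above those in cKO 4 and Het 3, in tables normalized separately, while the ratios of the pairs were close.

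Sulf2 was the lowest of the 3 higher genes in each library at 72 h, with 14.8 FPKM in cKO 2 against 1.37 in Het 1, and 8.05 in cKO 4 against 0.726 in Het 3. The fold differences of 10.8 and 11.1 were nearly equal in the pairs. The gene shares exon bases with Ncoa3 on the opposite strand, and the counting is not stated to use strand. Ncoa3, a coactivator of nuclear receptors, stood at 126 FPKM in cKO 2 against 131 in Het 1 and at 161 in cKO 4 against 165 in Het 3. The part of shared bases in the Sulf2 values was not tested. Penk likewise shares exon bases with A830012C17Rik, which was listed at 0 or at most 0.0730 FPKM.

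**Figure D1:**
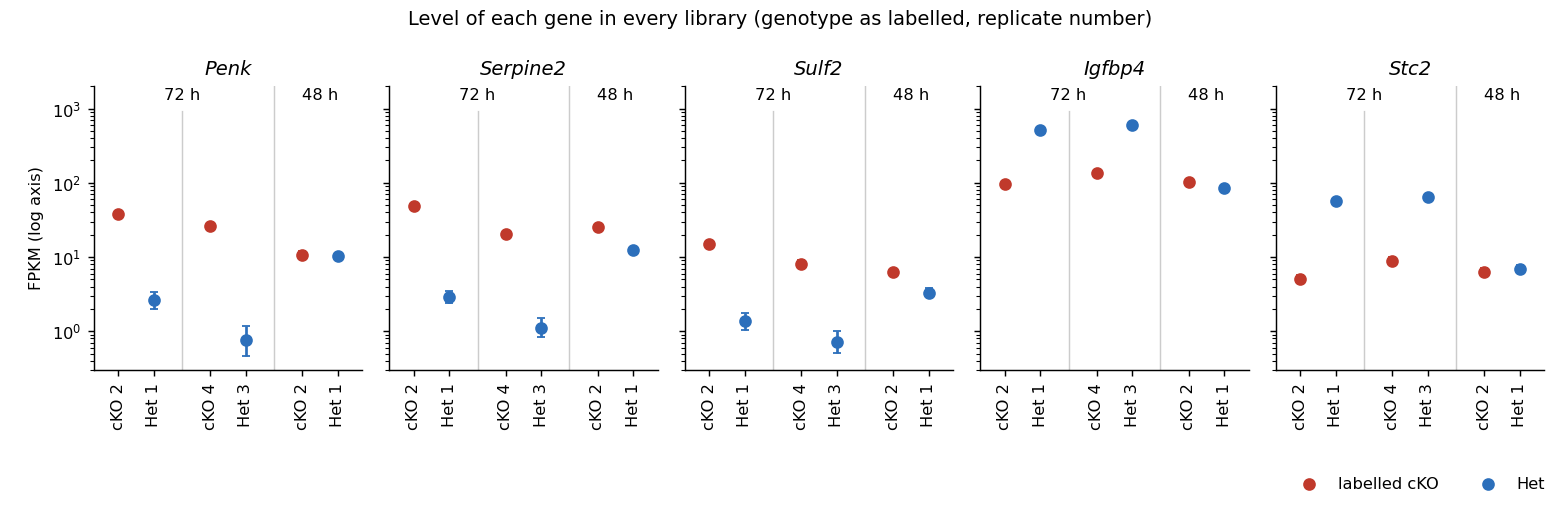
FPKM of each gene (log axis) in the 6 libraries, with those labelled cKO in red and Het in blue, 72 h left of 48 h, replicate numbers below and bars for the 95% Poisson interval of the estimated fragments (counting error alone). Penk, Serpine2 and Sulf2 lie higher, and Igfbp4 and Stc2 lower, in the libraries labelled cKO at 72 h, while at 48 h Penk stood at 10.6 and 10.2 FPKM in cKO 2 and Het 1.

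Igfbp4 was the most abundant of the 5, and the libraries labelled cKO were lower, with 96.9 FPKM in cKO 2 against 521 in Het 1, and 136 in cKO 4 against 606 in Het 3. That was 5.37-fold lower in the first pair and 4.46-fold lower in the second. Stc2 had 5.10 FPKM in cKO 2 against 56.2 in Het 1, and 8.76 in cKO 4 against 64.2 in Het 3. It was 11.0-fold lower in cKO 2 and 7.32-fold lower in cKO 4.

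On the log2(FPKM + 1) scale, which understates differences of low genes, the mean of the 2 pairs was 3.69 for Penk, 3.49 for Serpine2, 2.56 for Sulf2, -2.28 for Igfbp4 and -2.98 for Stc2. In 1.67% of 12488 genes the libraries labelled cKO were at least 2-fold higher in both pairs, and in 0.785% at least 2-fold lower. The 5 genes belong to these by choice, so their number says nothing more. In limma's fit of genotype at 72 h with the table as a term, 0% of the 12488 genes passed an adjusted p of 0.05 in either direction, and 2159 lay under an unadjusted p of 0.05. The median over all genes was 0.08.

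**Figure D2:**
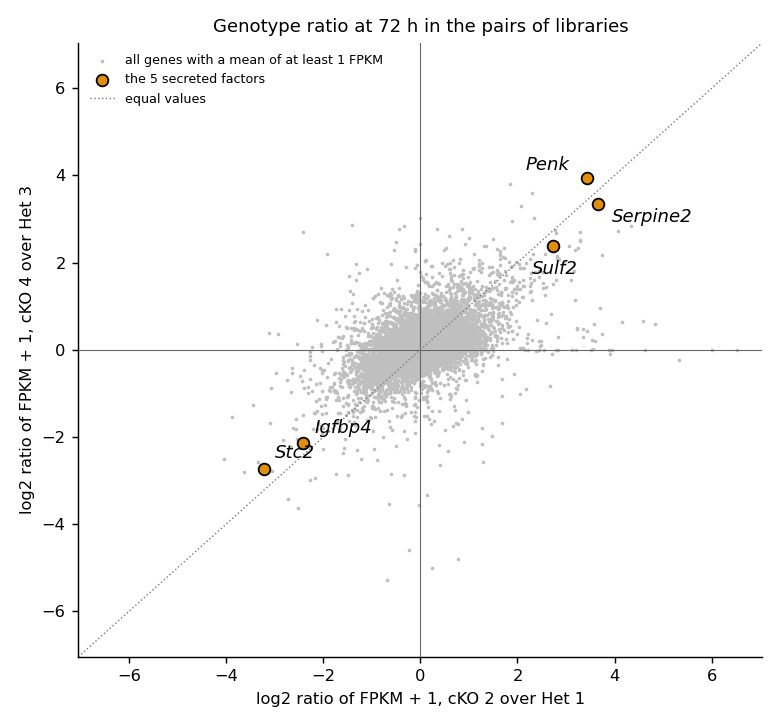
Log2 ratio of FPKM + 1 at 72 h, cKO 2 over Het 1 (x axis) and cKO 4 over Het 3 (y axis), for 12488 genes in grey and the 5 secreted factors in orange, with the dotted line marking equal values. Penk (3.43 and 3.95), Serpine2 (3.65 and 3.33) and Sulf2 (2.74 and 2.39) lie at the upper right, and Igfbp4 (-2.41 and -2.15) and Stc2 (-3.23 and -2.74) at the lower left.

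The pair of replicates 3 and 4 was also used in the choice of the genes, so its differences are no separate evidence. Summed neutrophil and myeloid markers in it were 0.320 FPKM in cKO 4 and 0.498 in Het 3. The differences in that pair were 34.6-fold, 18.2-fold and 11.1-fold higher in cKO 4 for Penk, Serpine2 and Sulf2, and 4.46-fold and 7.32-fold lower for Igfbp4 and Stc2. B and plasma cell markers summed to 9.13 FPKM in cKO 4 against 9.94 in Het 3, and to 87.3 in cKO 2 against 13.2 in Het 1. Summed over 6 genes, markers of CD8 T and NK cells moved with the genotype label in both pairs. The sums were 222 FPKM in cKO 2 against 65.9 in Het 1 and 96.4 in cKO 4 against 12.3 in Het 3. Of these Nkg7 alone gave 148 FPKM in cKO 2 against 29.1 in Het 1 and 89.1 in cKO 4 against 6.48 in Het 3. Of the 4 markers averaging 1 FPKM or more at 72 h, 3 were higher in the libraries labelled cKO in both pairs. The other, Cd8b1, stood at 19.1 FPKM in cKO 2 against 11.5 in Het 1 and 4.47 in cKO 4 against 4.69 in Het 3. The part of neutrophil and myeloid, B and plasma, and CD8 T and NK cells in the result was not tested. The 5 dendritic cell markers summed to 4.07 FPKM in cKO 2 against 0.393 in Het 1 and to 1.37 in cKO 4 against 0.305 in Het 3. In the second pair most of that was Zbtb46, at 1.02 FPKM in cKO 4 against 0.123 in Het 3. Itgax stood at 1.25 FPKM in cKO 2 against 0.0621 in Het 1, but at 0.0395 in cKO 4 against 0.0267 in Het 3. Fibroblasts and other stromal cells are known sources of several of these proteins, and the 7 stromal markers summed to 1.17 FPKM in cKO 2 against 2.33 in Het 1 and to 4.19 in cKO 4 against 3.86 in Het 3. Most of that was collagen, with Col1a1 at 0.682 FPKM in cKO 2 against 1.96 in Het 1 and 2.01 in cKO 4 against 2.82 in Het 3, and Col1a2 at 0.384 against 0.355 and 1.86 against 0.809. Each of the other 5 stromal markers, Dcn and Lum among them, reached at most 0.156 FPKM. The 4 endothelial markers summed to 38.7 FPKM in cKO 2 against 61.7 in Het 1 and to 49.8 in cKO 4 against 67.1 in Het 3, nearly all of it Pecam1, which T cells also express. The defining endothelial marker Cdh5 reached at most 0.217 FPKM. The 5 erythroid and platelet markers summed to 16.8 FPKM in cKO 2 against 19.2 in Het 1 and to 0.421 in cKO 4 against 4.96 in Het 3. Of these Hba-a1 stood at 7.58 against 19.0 and 0 against 4.68, and Hbb-bs at 9.13 against 0.0827 and 0.421 against 0. At 48 h the sum was 21.2 FPKM in cKO 2 against 0.640 in Het 1. The part of stromal, endothelial, dendritic, erythroid and platelet cells was not tested.

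With a single library of each genotype at 48 h nothing could be tested, but these libraries had no part in the choice of the genes. Serpine2 already differed by about the size of a doubling, with 25.6 FPKM in cKO 2 against 12.3 in Het 1, a ratio of 2.07 whose 95% counting interval was 1.88 to 2.30. Sulf2 stood at 6.24 FPKM in cKO 2 against 3.32 in Het 1, a ratio of 1.88 (interval 1.57 to 2.26). Both lay on the side they had at 72 h, though nearer to equal.

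Penk, with the widest mean gap at 72 h on the log2(FPKM + 1) scale, was close to equal at 48 h, with 10.6 FPKM in cKO 2 against 10.2 in Het 1 and a ratio of 1.04 (interval 0.880 to 1.23). Stc2 stood at 6.21 FPKM in cKO 2 against 6.97 in Het 1, a ratio of 0.891 (interval 0.758 to 1.05). For Penk and Stc2 a difference between these 2 libraries was thus not detectable at this depth. Igfbp4 had 102 FPKM in cKO 2 against 84.9 in Het 1, a ratio of 1.20 (interval 1.14 to 1.27), on the other side from 72 h.

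Set among all genes at 48 h, 2.01% of 12064 genes had a ratio at least as far from equal as Serpine2 on the log2(FPKM + 1) scale. The share was 3.13% for Sulf2, 22.5% for Igfbp4, 47.4% for Stc2 and 79.7% for Penk. At least 2-fold higher were 1.26% of the genes and at least 2-fold lower 0.729%, and none of the 5 secreted factors reached 2-fold on this scale, with Serpine2 nearest at 0.995. The libraries at 48 h differ in their content of other cells as well, since cKO 2 held 330 FPKM of summed neutrophil and myeloid markers against 0.532 in Het 1. The part of those cells in the Serpine2 and Sulf2 values at 48 h was not tested.

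Between 48 h and 72 h the genotypes as labelled went different ways. Each genotype has 1 library at each time in the table of replicates 1 and 2, and the libraries at 72 h are among those on which the genes were chosen, so these are values with no test. In Het 1, Igfbp4 was 6.13-fold higher at 72 h (521 FPKM) than at 48 h (84.9 FPKM), and Stc2 was 8.06-fold higher (56.2 and 6.97 FPKM). In cKO 2 the same genes stayed near their level at 48 h, at 0.949 of it for Igfbp4 (96.9 FPKM at 72 h and 102 at 48 h) and 0.822 of it for Stc2 (5.10 and 6.21 FPKM).

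Penk, Serpine2 and Sulf2 had opposite signs in the genotypes. In cKO 2, Penk was 3.598-fold higher at 72 h (38.3 FPKM) than at 48 h (10.6 FPKM), Serpine2 1.88-fold higher (48.0 and 25.6 FPKM) and Sulf2 2.37-fold higher (14.8 and 6.24 FPKM). In Het 1, Penk was 3.87-fold lower at 72 h (2.64 FPKM) than at 48 h (10.2 FPKM), Serpine2 4.25-fold lower (2.90 and 12.3 FPKM) and Sulf2 2.42-fold lower (1.37 and 3.32 FPKM). In these single libraries the values of the 3 genes changed in both cKO 2 and Het 1, while those of Igfbp4 and Stc2 changed mostly in Het 1. Where the genotype difference arises was not tested. Markers of CD8 T and NK cells were also higher in sum at 72 h, with 222 FPKM at 72 h against 35.9 at 48 h in cKO 2 and 65.9 against 25.4 in Het 1. Within these sums Nkg7 alone gave 148 FPKM at 72 h against 27.5 at 48 h in cKO 2, and 29.1 against 18.1 in Het 1. B and plasma cell markers summed to 87.3 FPKM at 72 h against 25.9 at 48 h in cKO 2 and to 13.2 against 10.3 in Het 1. The part of these cells in the changes with time was not tested.

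At least 2-fold higher at 72 h than at 48 h were 2.89% of 12250 genes in cKO 2 and 4.46% in Het 1. At least 2-fold lower were 0.857% in cKO 2 and 2.66% in Het 1. On this scale Penk and Sulf2 reached 2-fold higher in cKO 2, Igfbp4 and Stc2 reached 2-fold higher in Het 1, and Penk and Serpine2 reached 2-fold lower in Het 1. The genotype comparison at 72 h and these changes share the libraries at 72 h, and the values are set side by side without being read as separate evidence.

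**Figure D3:**
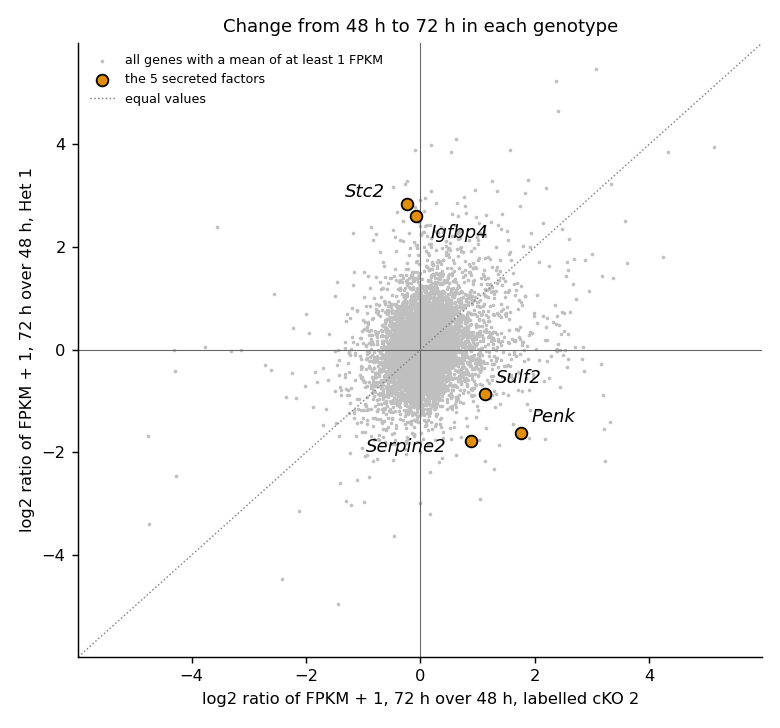
Log2 ratio of FPKM + 1, 72 h over 48 h, in cKO 2 (x axis) and Het 1 (y axis), for 12250 genes in grey and the 5 secreted factors in orange, with the dotted line marking equal values. Penk (1.75 and -1.62), Serpine2 (0.88 and -1.77) and Sulf2 (1.12 and -0.86) lie at the lower right, and Igfbp4 (-0.07 and 2.602) and Stc2 (-0.24 and 2.84) near the vertical axis at the top.

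Time averaged over both genotypes was fitted over all 6 libraries with genotype and table as terms. The fit has no term for a change with time that differs by genotype, so for these 5 genes the difference they were chosen for enters its error, and the values are a description with no test. The log2 changes were 1.30 ± 0.73 (SE) for Stc2, 1.26 ± 0.65 for Igfbp4, 0.13 ± 0.49 for Sulf2, 0.07 ± 0.93 for Penk and -0.44 ± 0.65 for Serpine2. Of all 12394 genes 0.0242% passed limma's adjusted p of 0.05, while 1374 lay under an unadjusted p of 0.05. Those that passed were the granzyme Gzmb, the transglutaminase Tgm2 and Cd8a, each higher at 72 h within the table of replicates 1 and 2. Cd8a stood at 39.0 FPKM in cKO 2 and 20.3 in Het 1 at 72 h, and at 0.992 and 0.466 in the same order at 48 h. In the other table it was only 2.24 FPKM in cKO 4 and 1.01 in Het 3 at 72 h. The number that passed was 1 without Het 1 at 72 h and 0 without either library at 48 h. It was also 0 with the replicate number as a block and 0 without the filter on low values. The averages depended on single libraries, since without Het 1 at 48 h Igfbp4 stood at -0.01 and Stc2 at -0.12, and without cKO 2 at 48 h they stood at 2.54 and 2.72.

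Of the genes around Penk, the opioid list held 16 others (peptide precursors, processing enzymes, peptidases and receptors), of which 5 had a mean of at least 1 FPKM at 72 h. None passed limma's adjusted p in either comparison. At an unadjusted p under 0.05 lay 1 for genotype at 72 h and 0 for time, against 2159 of 12488 and 1374 of 12394 genes in all. Lists were drawn up with earlier results of these data known, so such counts are no test. The median log2 difference at 72 h was 0.02 against 0.08 over all genes, and 0 were 2-fold different in both pairs. Carboxypeptidase D (Cpd), which trims peptides in the secretory pathway, stood at 60.4 FPKM in cKO 2 against 64.3 in Het 1 and 110 in cKO 4 against 74.4 in Het 3. Ogfr, a receptor for Met-enkephalin outside the opioid receptor family, stood at 76.1 against 52.6 FPKM and 73.0 against 55.0 in the same pairs, a log2 difference of 0.46 ± 0.13 (SE, limma adjusted p = 0.228). The enkephalin-degrading peptidase Dpp3 lay at 35.1 to 40.4 FPKM over the 6 libraries. The classical receptors were low, with Oprm1 (mu) at most 1.07 FPKM, Oprd1 (delta) at most 0.0208 and Oprk1 (kappa) at most 0.0302, and the convertase Pcsk1, which cuts proenkephalin, at most 0.7. These receptors and Pcsk1 were named after their values were seen.

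Of the insulin-like growth factor axis, 14 genes besides Igfbp4 were listed and 5 were tested at 72 h. None passed in limma for genotype or time. At an unadjusted p under 0.05 lay 1 and 1, against 2159 of 12488 and 1374 of 12394 genes in all. None was 2-fold different in both pairs, and the median log2 difference at 72 h was -0.16. Igf2r, which carries IGF2 to the lysosome, was level, at 152 FPKM in cKO 2 against 162 in Het 1 and 148 in cKO 4 against 149 in Het 3. The adaptor Irs2 stood at 15.1 against 11.3 FPKM and 24.7 against 16.0 in the same pairs (log2 difference 0.49 ± 0.14, SE, limma adjusted p = 0.235). Igfbp7, the next binding protein by level, went opposite ways in the pairs, at 6.33 FPKM in cKO 2 against 17.0 in Het 1 and 25.5 in cKO 4 against 18.4 in Het 3. Igfbp1, Igfbp2 and Igfbp3 were listed at 0 in all 6 libraries, and the ligands Igf1 and Igf2 reached at most 0.235 and 0.669 FPKM. These 5 genes were named after their values were seen.

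Stanniocalcin 1 (Stc1), the paralog of Stc2, was low but on the same side, at 0.280 FPKM in cKO 2 against 3.33 in Het 1 and 0.130 in cKO 4 against 1.22 in Het 3. Its log2 difference at 72 h was -1.37 on the log2(FPKM + 1) scale, with a limma adjusted p of 0.205, and it was the 1 gene tested of the 3 besides Stc2 in that list (1 at an unadjusted p under 0.05). Pappa and Pappa2, which encode the protease inhibited by stanniocalcin 2 and its paralog, reached at most 0.0224 and 0.0862 FPKM. Transcripts of the protease were thus at or near 0 in these libraries while those of Igfbp4 and Stc2 were not.

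Around Serpine2, 21 other serpins, proteases of the plasminogen system and their receptors were listed, and 12 were tested at 72 h. None passed in limma for genotype or time, and the median log2 difference at 72 h was 0.10. At an unadjusted p under 0.05 lay 4 and 5, against 2159 of 12488 and 1374 of 12394 genes in all. The 1 gene at least 2-fold higher in both pairs was Serpina3g, a serpin of activated lymphocytes, at 52.9 FPKM in cKO 2 against 19.0 in Het 1 and 76.6 in cKO 4 against 25.5 in Het 3 (log2 difference 1.49 ± 0.13, SE, limma adjusted p = 0.106). It has near-identical neighbours among the Serpina3 genes, so its value is uncertain. The 1 gene at least 2-fold lower in both pairs was Vldlr, a lipoprotein receptor, at 1.69 FPKM in cKO 2 against 10.5 in Het 1 and 0.428 in cKO 4 against 3.61 in Het 3, named for that count. Serpinb6a, which inhibits proteases inside the cell and also has close paralogs, went opposite ways, at 19.8 FPKM in cKO 2 against 57.5 in Het 1 and 37.3 in cKO 4 against 35.8 in Het 3. The lipoprotein receptor Lrp8 lay at 15.05 to 23.6 FPKM over the 6 libraries. Of the extracellular targets of Serpine2, Plau (urokinase) reached at most 0.804 FPKM and was named after its value was seen.

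Around Sulf2, 36 other heparan sulfate genes were listed and 20 were tested at 72 h. None passed in limma for genotype or time. At an unadjusted p under 0.05 lay 5 and 1, against 2159 of 12488 and 1374 of 12394 genes in all. None was 2-fold different in both pairs, and the median log2 difference at 72 h was -0.08. The chain polymerase subunit Ext2 stood at 56.1 FPKM in cKO 2 against 42.8 in Het 1 and 58.4 in cKO 4 against 49.5 in Het 3. B3gat3 and Xylt2, which build the linker on which the chain starts, had log2 differences of -0.17 ± 0.14 and -0.40 ± 0.13 (SE). The core protein syndecan 4 (Sdc4) was lower in the libraries labelled cKO in both pairs, at 20.7 FPKM in cKO 2 against 40.0 in Het 1 and 18.6 in cKO 4 against 29.1 in Het 3 (log2 difference -0.77 ± 0.15, SE, limma adjusted p = 0.164). Sulf1, the other sulfatase of this kind, reached at most 0.0571 FPKM and was named after its value was seen.

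Of 30 other secreted factors of regulatory T cells, 24 were tested at 72 h, with a median log2 difference of 0.40. None passed in limma for genotype (12 at an unadjusted p under 0.05, against 2159 of 12488 genes in all). For time 1 passed and 11 lay under an unadjusted p of 0.05, against 1374 of 12394 genes in all. The list was drawn up with earlier results of these data known, so its counts are no test against the shares over all genes. In both pairs 3 reached 2-fold higher and 2 reached 2-fold lower, against 1.67% and 0.785% of all genes. The higher ones, named for that count, were the chemokines Ccl3 and Ccl4 and the cytokine Il13. Ccl4 stood at 11.9 FPKM in cKO 2 against 1.52 in Het 1 and 5.89 in cKO 4 against 0.997 in Het 3. The lower ones were the angiogenic factor Vegfa, at 20.4 FPKM in cKO 2 against 71.0 in Het 1 and 6.54 in cKO 4 against 53.0 in Het 3, and the growth factor Hbegf, at 2.54 against 7.39 and 1.998 against 7.09. Among the most abundant, lymphotoxin beta (Ltb) lay at 406 to 478 FPKM over the 6 libraries, and Tgfb1 had a log2 difference of 0.39 ± 0.14 (SE, limma adjusted p = 0.281). Lymphotoxin alpha (Lta) had 0.70 ± 0.19 (SE, limma adjusted p = 0.225). Gzmb, which cuts target cell proteins, was 811 FPKM in cKO 2 against 379 in Het 1 and 227 in cKO 4 against 182 in Het 3 at 72 h, and 22.1 in cKO 2 against 23.7 in Het 1 at 48 h. Gzmb rose with time, by 4.54 ± 0.29 on the log2 scale (SE, limma adjusted p = 0.0481, the highest of the 3 genes that passed). That call was lost at least with the replicate block, without the filter on low values and without either library at 48 h.

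**Figure D4:**
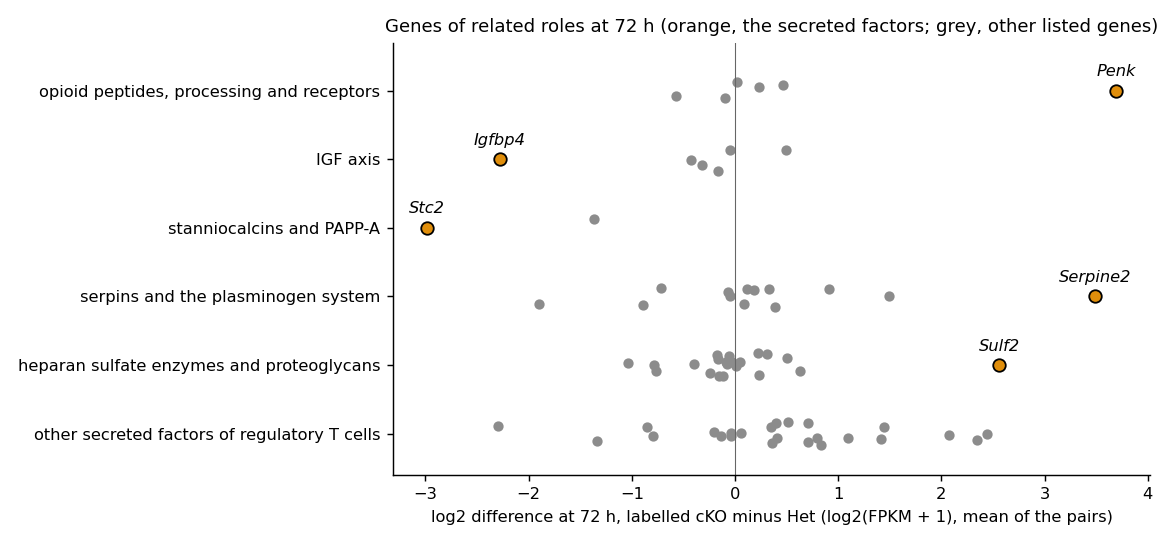
Log2 difference at 72 h (labelled cKO minus Het, mean of the 2 pairs on the log2(FPKM + 1) scale, x axis) of genes averaging 1 FPKM or more in 6 lists of related roles (y axis), the 5 secreted factors in orange and the other genes in grey. Penk (3.69), Serpine2 (3.49), Sulf2 (2.56), Igfbp4 (-2.28) and Stc2 (-2.98) lie at the ends of their lists, for which they were chosen, and the other genes of the opioid list spread around 0.

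To describe which genes ran alongside, log2(FPKM + 1) was centred within each table and correlated with each secreted factor over the 6 libraries, among 8652 named protein-coding genes that averaged 5 FPKM or more. The 6 points come from 2 tables and share their libraries with the choice of the genes, and the measure compares the shape of a pattern and not its size. Nearest to Igfbp4 were Avpi1, the calcium channel subunit Orai2 and the histone demethylase Kdm4b (Pearson r of 0.9986 to 0.9999). Kdm4b stood at 35.6 FPKM in cKO 2 against 53.4 in Het 1 and 38.8 in cKO 4 against 58.1 in Het 3 at 72 h, and 35.4 against 33.6 at 48 h. Nearest to Stc2 were Keap1, the activin receptor Acvr1b and the secreted proteoglycan Prg4 (r of 0.9985 to 0.9989). Acvr1b stood at 7.56 FPKM in cKO 2 against 25.0 in Het 1 and 9.06 in cKO 4 against 23.8 in Het 3 at 72 h, and 7.81 against 8.84 at 48 h.

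Nearest to Serpine2 were the nuclear receptor corepressor Nrip1, the DNA repair enzyme Mgmt and the glucose transporter Slc2a6 (r of 0.9993 to 0.9999). Mgmt had a wide range, with 20.02 FPKM in cKO 2 against 3.80 in Het 1 and 13.7 in cKO 4 against 2.97 in Het 3 at 72 h, and 14.3 against 8.75 at 48 h. Nearest to Sulf2 were the peptide transporter Slc15a3, Rbm43 and Nmi (r of 0.9970 to 0.9987), and Slc15a3 stood at 12.4 FPKM in cKO 2 against 3.06 in Het 1 and 14.4 in cKO 4 against 4.10 in Het 3 at 72 h, and 7.18 against 5.22 at 48 h. Nearest to Penk were Tatdn3, Acad11 and Dstyk (r of 0.9965 to 0.9993), with far smaller differences, since Tatdn3 stood at 9.85 FPKM in cKO 2 against 6.10 in Het 1 and 10.9 in cKO 4 against 6.51 in Het 3 at 72 h.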

How the data were processed

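Expression was analysed from the FPKM that the authors deposited in 2 tables (47427 and 47347 rows), with 1 column per library. Per the submitters' processing notes, HTSeq 0.6.1, TopHat2 2.0.12 and Bowtie2 2.2.3 were used with build mm9. What each tool did, the gene annotation and strand handling were not given in the sources used here. Per the labels' protocols, cDNA was prepared with the SMART-Seq v4 low input kit, and 1 passage gives both genotypes the same alleles, so genotype was taken from each library's own label. Of the 47069 shared Ensembl IDs, 46488 matched a symbol in the GENCODE M21 tables. Rows lacking an Ensembl ID were not used.

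Values were compared as log2(FPKM + 1) for genes that averaged 1 FPKM or more in the libraries of a comparison, without rescaling. Linear models used limma 3.58.1 in R 4.3.3 with a variance trend and Benjamini-Hochberg adjustment over all genes. They were also run on simulated data with independent noise and no table effect. That run does not show how the fits behave on these libraries. The fit at 72 h left 1 residual degree of freedom and that for time 2. Depth was estimated from the library size at which FPKM times mean transcript length gave whole fragments (84.3% to 84.9% of low values within 0.02). These fragments served for Poisson and exact binomial intervals at 95%, reflecting counting error only, and counts were not tested.

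The genes and lists were chosen with earlier results of these data known. Named genes were the 5 secreted factors, up to 4 of each list by mean FPKM, those past the threshold for time with at least 2-fold change, and the 3 genes nearest in pattern to each factor. Others are marked where they appear. Alternatives covered the pseudocount, filter, scaling, table term, variance trend, libraries and replicate block.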

Additional observations from a re-analysis of the deposited data

Results flagged for a closer look

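For each of the 5 genes the sign of the change from 48 h to 72 h was opposite in the 2 genotypes as labelled, in the 1 library per genotype and time that allows it. The difference was not tested, and the genes were chosen on libraries that enter it. The log2 change in cKO 2 minus that in Het 1 was 3.38 for Penk, 2.66 for Serpine2, 1.99 for Sulf2, -2.68 for Igfbp4 and -3.08 for Stc2. For Igfbp4 the change in cKO 2 was within counting error, with a ratio of 0.949 (95% interval 0.8997 to 1.0012).

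The genotype ratio of Igfbp4 also changed side, being above 0 on the log2 scale in the pair at 48 h and below 0 in both pairs at 72 h. The mean at 72 h minus the value at 48 h was -2.54, which was not tested either.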

How the results depend on the processing

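At 72 h the 5 genes kept their direction under all 14 alternatives tried for each. Their choice on both pairs largely fixed this in advance, so it is no check of the difference. The size of the log2 difference moved with the pseudocount. With 0.1 FPKM it was 4.37 for Penk, 4.04 for Serpine2 and 3.32 for Sulf2. With 5 FPKM it was 2.47, 2.40 and 1.41 for the same genes and -2.46 for Stc2. Leaving out 1 library leaves the other pair, a value with no test, and gave 3.43 to 3.95 for Penk, 3.33 to 3.65 for Serpine2, 2.39 to 2.74 for Sulf2, -2.41 to -2.15 for Igfbp4 and -3.23 to -2.74 for Stc2. No gene passed at 72 h under the 10 alternatives that could be fitted. At 48 h a pseudocount of 5 FPKM gave 0.82 for Serpine2 and 0.43 for Sulf2, and directions were kept by all 5 genes. The number of genes at least 2-fold different at 48 h was 240, and 396 with a pseudocount of 0.1 FPKM and 58 with 5 FPKM. At 72 h it was 306 in both pairs, 542 and 115 with those pseudocounts, and 705 in the pair of replicates 3 and 4 alone, an alternative chosen after seeing the data.

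For time, the 3 genes that passed became 1 with a pseudocount of 5 FPKM and 0 without a filter, and 0 to 4 when 1 library was left out. With the replicate number as a block the count was 0. The pairing could not be checked, since there is 1 library per genotype at 48 h. For the 5 genes time was not tested. Penk turned to -0.0371 with a pseudocount of 0.1 FPKM. Leaving out 1 library turned signs, with ranges of -1.75 to 1.89 for Penk, -1.69 to 0.80 for Serpine2, -0.78 to 1.04 for Sulf2, -0.0085 to 2.54 for Igfbp4 and -0.12 to 2.72 for Stc2. The cause was not tested. Depth limits the Het levels of Penk, Serpine2 and Sulf2 at 72 h, which rested on an estimated 20 to 107 fragments.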
